A study of Mus musculus with 3 samples.

Results

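The genes described here are 8 members of the signalling lymphocytic activation molecule (SLAM) family and its adaptor, chosen by name from the 32285 genes of the deposited tables: the receptors Slamf1, Slamf6, Slamf7, Ly9, Cd84 and Cd244a, the ligand and receptor Cd48, and the adaptor Sh2d1a. Their transcripts were counted in single cells of 3 libraries, each of live CD45+ leukocytes sorted from pancreatic islets of female wild-type NOD mice, the inbred strain that develops autoimmune diabetes. All 3 libraries are of this 1 condition, with no treatment and no other genotype, and each pools the islets of 2 to 3 mice, so a difference between mice within a library cannot be seen. The mice were 15 to 16 weeks old by the methods and from 14 weeks by a legend, and the 3 libraries came from 2 independent experiments that are not matched to libraries in the sources used here.

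SLAM receptors are immunoglobulin-like proteins on the surface of leukocytes, and most of them bind a copy of themselves on a neighbouring cell. Cd48 differs in having a lipid anchor in place of a signalling tail, and it is bound by Cd244a and, in mice, also by Cd2. Sh2d1a encodes SAP, a small adaptor of T and NK cells that docks on tyrosine motifs in the tails of several of these receptors and brings the kinase Fyn to them, and it is needed for stable contacts between helper T cells and B cells. Slamf6, also called Ly108, is widely used as a surface mark of stem-like CD8 T cells that carry PD1 (gene Pdcd1) and the transcription factor TCF1 (gene Tcf7).

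The 7 receptor genes lie together on chromosome 1 of GRCm38 (mm10), within 394.0 kb from base 171559193 to base 171953170 (GENCODE M21). In order these are Cd244a, Ly9, Slamf7, Cd48, Slamf1, Cd84 and Slamf6 (ENSMUSG00000015314, chr1:171917515-171953170, plus strand). Ly9 and Slamf7 are on the minus strand, and all 18787 bases of Ly9 lie inside Cd244a on the opposite strand. Whether strand was used in the counting was not given in the sources used here, so the values of Ly9 and Cd244a are uncertain where their exons meet. Sh2d1a (ENSMUSG00000005696) is on the plus strand of chromosome X, at chrX:42502453-42529330.

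**Figure D1:**
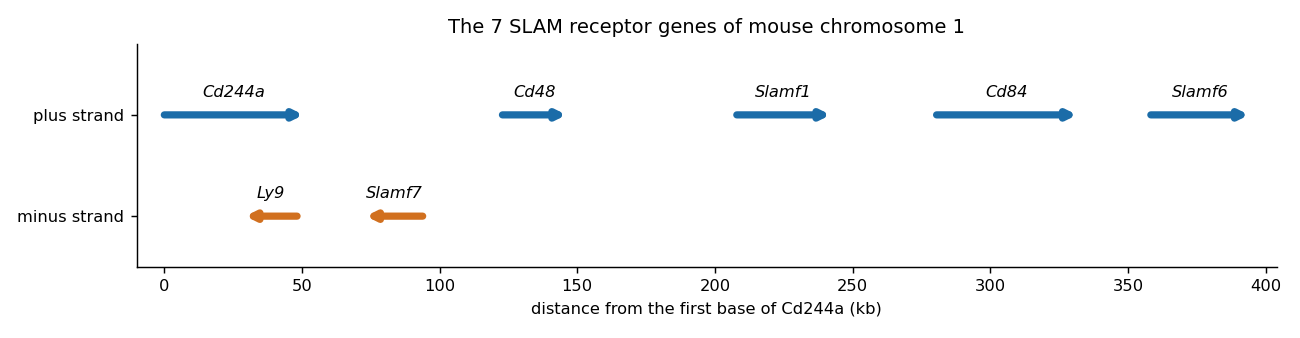
Positions of the 7 SLAM receptor genes on mouse chromosome 1, as distance in kb from the first base of Cd244a, with arrows pointing in the direction of transcription on the plus (upper) and minus (lower) strand. The genes span 394.0 kb, and Ly9 lies wholly within the span of Cd244a.

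RefSeq promoter windows of GRCm38.p6, from 250 bases before to 50 bases after the start, were held for 6 of the 8 genes (not for Ly9 and Sh2d1a). The windows of Slamf6, Slamf7, Cd48 and Slamf1 are shown because these receptors differed between T-cell states in the results that follow. They are reference sequence, not read from NOD mice. Capitals mark matches, on either strand, to 4 motifs of transcription factor families of T cells: CTTTGA (TCF/LEF), TGTGGT (RUNX), GGTGTGA (T-box) and TGANTCA (AP-1). The Slamf6 window is chr1:171917212-171917511 on the plus strand, and it ends before the GENCODE gene starts at base 171917515. That of Slamf7 is chr1:171648950-171649249 on the minus strand, inside the longer GENCODE gene. Those of Cd48 and Slamf1 are chr1:171681742-171682041 and chr1:171766882-171767181, both on the plus strand.
Slamf6: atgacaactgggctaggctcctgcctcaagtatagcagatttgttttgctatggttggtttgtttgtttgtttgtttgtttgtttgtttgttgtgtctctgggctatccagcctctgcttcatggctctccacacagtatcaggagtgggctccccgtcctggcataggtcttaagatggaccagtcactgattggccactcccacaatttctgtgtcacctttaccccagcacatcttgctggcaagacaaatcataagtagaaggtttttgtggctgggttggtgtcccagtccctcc
Slamf7: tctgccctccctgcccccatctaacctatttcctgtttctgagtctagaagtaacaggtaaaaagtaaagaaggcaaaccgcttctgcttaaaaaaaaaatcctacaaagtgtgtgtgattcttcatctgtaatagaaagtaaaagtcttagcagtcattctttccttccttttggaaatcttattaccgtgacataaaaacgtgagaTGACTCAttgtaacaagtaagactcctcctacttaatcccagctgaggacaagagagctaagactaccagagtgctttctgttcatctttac
Cd48: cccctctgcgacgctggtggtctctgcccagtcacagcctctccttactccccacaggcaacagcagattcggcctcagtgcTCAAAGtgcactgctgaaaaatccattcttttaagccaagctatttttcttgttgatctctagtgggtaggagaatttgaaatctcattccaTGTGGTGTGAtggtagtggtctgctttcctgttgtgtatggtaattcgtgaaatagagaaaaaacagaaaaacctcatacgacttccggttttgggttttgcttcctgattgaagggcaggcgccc
Slamf1: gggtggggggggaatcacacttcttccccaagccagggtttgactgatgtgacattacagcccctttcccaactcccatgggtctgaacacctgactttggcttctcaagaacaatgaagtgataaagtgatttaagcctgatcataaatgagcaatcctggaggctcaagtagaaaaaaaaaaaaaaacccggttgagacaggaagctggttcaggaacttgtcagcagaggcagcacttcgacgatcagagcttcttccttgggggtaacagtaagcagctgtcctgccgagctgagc

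The Slamf6 and Slamf1 windows held none of the 4 motifs. The Slamf7 window held 1 AP-1 match 42 bases before the start. In the Cd48 window a TCF/LEF match stood 168 bases before the start, and a RUNX match at 76 bases overlapped a T-box match at 73 bases. Of 32851 promoter windows of this length, 16% held the TCF/LEF motif, 16.8% the RUNX motif, 3.98% the T-box motif and 7.81% the AP-1 motif, so such matches are common and are given as a description of the sequence.

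The libraries held 5844, 9537 and 11566 cells and from 33851381 to 80806452 unique molecular identifiers (UMIs, each standing for 1 captured RNA molecule). Cells with at least 1000 UMIs and under 10% mitochondrial UMIs were kept (26142), with a median of 4291, 6522 and 5606.5 UMIs in replicates 1, 2 and 3. Classes were set by raw UMIs of a few marker genes and took 15673 cells (60.0%). CD8 T cells had Cd3e, at least 2 UMIs of Cd8a and Cd8b1 and no Cd4 (3199 cells). CD4 T cells had Cd3e and Cd4 without Cd8a, Cd8b1 or Foxp3 (5858), and Treg cells had Cd3e and Foxp3 (1612). B cells had at least 2 UMIs of Cd79a and no Cd3e (4936), and macrophages at least 5 UMIs of C1qa and C1qb, no Cd3e and at most 1 of Cd79a (68 cells, with 31, 10 and 27 in replicates 1, 2 and 3). A further 59 cells met 2 rules and were left out, and 12, 18 and 29 barcodes were shared by the 3 pairs of libraries.

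By the mean of the libraries, lists of T, Treg, B and macrophage markers that the rules did not use were each highest in the class they name. The summed level of 6 T-cell markers was 3857 to 5063 CPM (UMIs of a gene per 1000000 UMIs) in the T classes, 177 to 274 CPM in B cells and 5.29 to 49.4 CPM in macrophages. Marker UMIs of B cells were also found in T classes, and 23.5% of Treg cells, 10.7% of CD4 T cells and 6.75% of CD8 T cells carried UMIs that met the marker count of B cells or macrophages. In the macrophage sums the beta-cell genes ranged from 7.93 to 1356 CPM and all 4 NK-cell markers were at 0. The part of mixed-marker cells in the results is given where leaving them out changed a call, and that of beta-cell RNA was not tested.

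Levels below are in CPM over the summed cells of a class in a library, as the mean ± SD of the 3 libraries. They are compared between classes for 1 gene at a time and not between genes. Differences were tested on the sums by edgeR's quasi-likelihood method, in a model that holds the library as a block, with Benjamini-Hochberg adjustment of p over all genes tested and a threshold of 0.05.

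Cd48, the ligand of the family, was found in every class. It was at 109 ± 17.0 CPM in macrophages (95.1, 103 and 128 in replicates 1, 2 and 3), 83.1 ± 22.7 in Treg cells, 72.7 ± 24.2 in CD8 T cells, 56.2 ± 8.67 in CD4 T cells and 44.6 ± 6.23 in B cells, and the ranges of all neighbours in this order overlapped. Within each library, Treg cells were above CD8 T cells, CD8 T above CD4 T cells and CD4 T above B cells. Cd244a, the receptor for Cd48, was scarce in T cells, with 39 UMIs in all CD8 T cells (1.57 CPM), 63 in CD4 T cells (1.41 CPM) and 43 in Treg cells (1.97 CPM). With cells that carried markers of 2 classes left out, 25, 27 and 21 Cd244a UMIs remained in these classes (1.30, 0.773 and 1.48 CPM). B cells had 170 UMIs of it (3.60, 4.90 and 6.43 CPM), above every T class in every library, and macrophages 5 UMIs. The ligand was therefore measured in all 5 classes, and its SLAM receptor at under 10 CPM in the 4 lymphocyte classes.

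Slamf1 was the 1 receptor whose libraries did not overlap between any neighbouring classes. Treg cells had 51.5, 46.1 and 44.7 CPM, CD4 T cells 33.6, 23.6 and 26.7, CD8 T cells 14.2, 12.3 and 15.8, and B cells 9.95, 7.11 and 8.27. In macrophages 1 UMI was counted, so that the pooled level was 25.7 times higher in Treg cells (95% exact interval 4.61 to 1018, counting error only).

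Slamf6 was highest in CD4 T and Treg cells. CD4 T cells had 155, 107 and 119 CPM and Treg cells 132, 93.7 and 113, and these ranges overlapped, with CD4 T cells above Treg cells within each library. B cells (76.3 ± 7.76 CPM) and CD8 T cells (75.2 ± 10.6 CPM) overlapped each other, and Treg cells were above both in every library. Macrophages had 20.2 ± 7.50 CPM from 12 UMIs.

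Slamf7, a receptor of cytotoxic and myeloid cells and plasma cells, had nearly the reverse order. It was at 137, 143 and 152 CPM in macrophages, 50.1, 30.8 and 36 in CD8 T cells and 43.2, 22.1 and 26.1 in B cells, and was low in Treg cells (12.9 ± 2.19) and CD4 T cells (11.7 ± 4.47). Macrophages were above all other classes, and the ranges of CD8 T cells and B cells overlapped, with CD8 T cells above B cells within each library. With cells that carried markers of 2 classes left out, CD4 T cells were at 9.29 CPM and Treg cells at 9.95 CPM.

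Ly9 and Cd84 both encode receptors that bind themselves. Mean Ly9 levels lay between 21.1 and 22.8 CPM in the 4 lymphocyte classes, all overlapping. Cd84 was at 40.6 ± 3.79 CPM in CD4 T cells, 38.7 ± 3.58 in Treg cells, 31.5 ± 1.36 in CD8 T cells and 22.9 ± 5.71 in B cells. In macrophages its values were 37.0, 135 and 28.8 CPM, and the high value came from the library with 10 macrophages.

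Among the 5 classes, Sh2d1a was mainly found in T cells, and NK-like cells outside these classes also had it (139 ± 18.3 CPM). CD4 T cells had 341, 277 and 281 CPM, Treg cells 263, 238 and 290, and CD8 T cells 204, 158 and 207, and CD8 T cells were below the other T classes in every library. B cells had 4.74, 4.41 and 4.29 CPM, where the 6 T-cell markers summed to 212 CPM. Macrophages had 1 UMI, so that CD4 T cells were 161 times higher in the pooled level (95% exact interval 28.8 to 6343, counting error only).

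**Figure D2:**
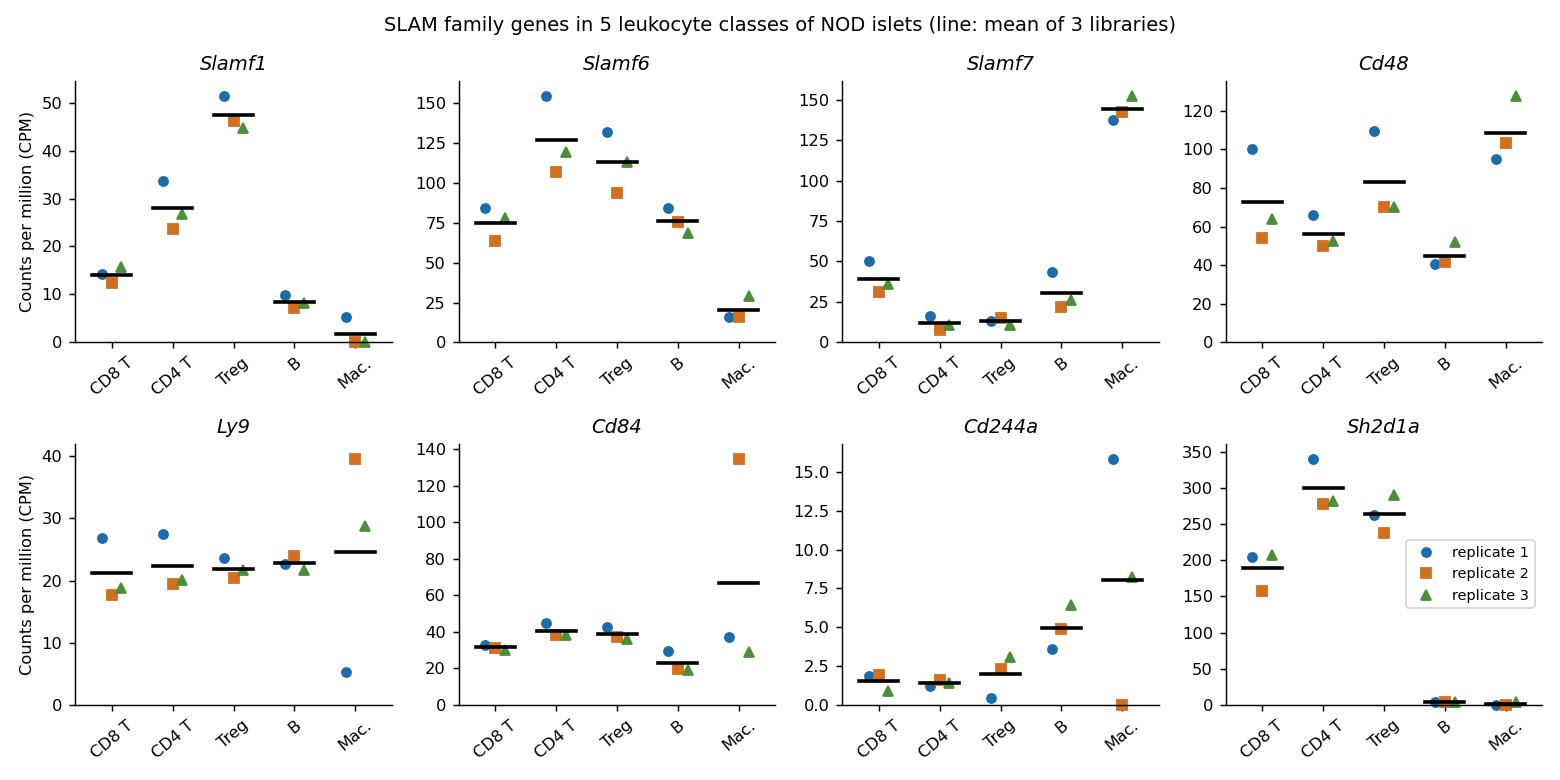
Level of each of the 8 genes (CPM, linear axis from 0, own scale per gene) in CD8 T, CD4 T, Treg and B cells and macrophages (Mac.), with 1 point per library and a line at the mean of 3. Slamf1 is highest in Treg cells, Slamf7 in macrophages and Sh2d1a in the 3 T classes, while Ly9 overlaps between all classes.

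Among T cells, 4 of the 8 genes differed between CD8 and CD4 T cells, where 11.2% of all 12099 genes tested did. Slamf7 was 3.71 times higher in CD8 T cells (log2 1.89, SE 0.16, adjusted p = 1.38e-06). Slamf1, Slamf6 and Sh2d1a were lower, by 1.79, 1.55 and 1.47 times (adjusted p = 2.49e-04, 6.63e-04 and 0.00318). The median log2 difference of the 8 genes was -0.12, and that of all genes 0.01. The call of Sh2d1a was lost without replicate 2 (log2 -0.49, adjusted p = 0.122), with thinning of each cell to 2000 UMIs (-0.24, adjusted p = 0.296), with the cell limits of the study (-0.39, adjusted p = 0.108) and without the block (-0.55, adjusted p = 0.0754), and that of Slamf1 with thinning (-0.89, adjusted p = 0.0771). Cd48 passed only without replicate 1 among the fits that left out a library (0.30, adjusted p = 0.0254, against 0.44 and 0.0785 with all libraries).

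Slamf1 was the 1 member that differed between Treg and CD4 T cells, where 5.77% of all genes did. It was 1.63 times higher in Treg cells (log2 0.70, SE 0.11, adjusted p = 0.00149). Cells with markers of 2 classes were more frequent among Treg cells, and with them left out the log2 difference was 0.76 (adjusted p = 0.00254). The call was lost without replicate 2 (0.61, adjusted p = 0.164), without replicate 3 (0.74, adjusted p = 0.0512), with thinning to 2000 UMIs (0.52, adjusted p = 0.345) and without the block (0.69, adjusted p = 0.101). Cd48 passed without replicate 1 (0.34, adjusted p = 0.0206), with the cell limits of the study (0.58, adjusted p = 0.0224) and with no count filter (0.44, adjusted p = 0.0154).

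Between B cells and the mean of the T classes, 7 of 8 members differed, against 56.8% of all genes. Sh2d1a was 50.2 times lower in B cells (log2 -5.65, SE 0.14, adjusted p = 5.77e-13) and Slamf1 2.93 times lower. Cd84, Cd48 and Slamf6 were lower by 1.50, 1.40 and 1.23 times (adjusted p = 0.00153, 0.00445 and 0.00769). Slamf7 and Cd244a were higher in B cells, by 1.78 and 3.18 times (adjusted p = 3.30e-05 and 1.23e-04). Of the 1023 Slamf7 UMIs of B cells, 336 came from 134 plasma-like cells (with Jchain and Mzb1) within the class. The difference without these cells was not tested. The call of Slamf6 was lost without replicate 3 (log2 -0.22, adjusted p = 0.154), with the cell limits of the study (-0.15, adjusted p = 0.230) and without the block (-0.31, adjusted p = 0.0850), and Ly9 passed without replicate 1 (0.29, adjusted p = 0.0108).

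Macrophages differed from the mean of the lymphocyte classes in 5 of 8 members, against 35.0% of all genes. The median log2 difference of all genes was -0.53, and -0.39 with RLE size factors, and the differences are to be read against this shift. Slamf7 was higher (log2 2.79, SE 0.26, adjusted p = 3.53e-07) and Slamf6 lower (-2.18, SE 0.28, adjusted p = 1.18e-05), and the remaining lower calls, Slamf1 and Sh2d1a, rest on 1 UMI each. Cd48 was 1.75 times higher (log2 0.81, adjusted p = 0.0343), a call that was lost without replicate 2 (0.76, adjusted p = 0.0874), without replicate 3 (0.60, adjusted p = 0.230), with cells of mixed markers left out (0.63, adjusted p = 0.180), with the highest Scrublet doublet scores left out (0.74, adjusted p = 0.0506), with the cell limits of the study (0.67, adjusted p = 0.473) and with thinning to 2000 UMIs (0.17, adjusted p = 0.851). By DESeq2 Cd84 (0.96, adjusted p = 0.00992) and Cd244a (2.15, adjusted p = 0.0105) were also higher. The macrophage level of Cd244a rests on 5 UMIs, and 17 of the 31 Cd84 UMIs came from the 10 macrophages of replicate 2. The 68 macrophages limit this comparison.

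Leukocytes outside the 5 classes, and plasma-like cells within B cells, were described without a test. The 5 check markers of DC-like cells did not set them apart from macrophages in sum (9245 to 10482 CPM, against 11058 to 13150 CPM in macrophages). That sum was mostly the MHC class II gene H2-Aa, and the other 4, Zbtb46, Xcr1, Clec9a and Cd209a, had higher means in DC-like cells (48.8, 25.2, 44.5 and 56.8 CPM) than in macrophages (11.9, 2.75, 24.9 and 0 CPM, where a count of 0 allows up to 5.38 CPM). NK-like cells (Ncr1, no Cd3e, 252 cells) had the highest mean Cd244a level, at 69.3, 25.2 and 40.7 CPM, followed by DC-like cells (Flt3, no Cd3e, 219 cells) at 21.5, 24.1 and 48.8 CPM. Both were above the T classes and B cells in every library. NK-like cells also had Sh2d1a (139 ± 18.3 CPM) and Slamf7 (81.9 ± 11.1 CPM), and their summed T-cell markers were 1174 CPM. Slamf7 was at 84.3 ± 15.1 CPM in DC-like cells and at 139, 97.6 and 101 CPM in the 134 plasma-like B cells (Jchain and Mzb1), which had 45.2 ± 3.61 CPM of Slamf6 and 9.96 ± 0.698 of Cd84. Sh2d1a was at 2.65 CPM in DC-like cells, the class next to NK-like cells in Cd244a.

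**Figure D3:**
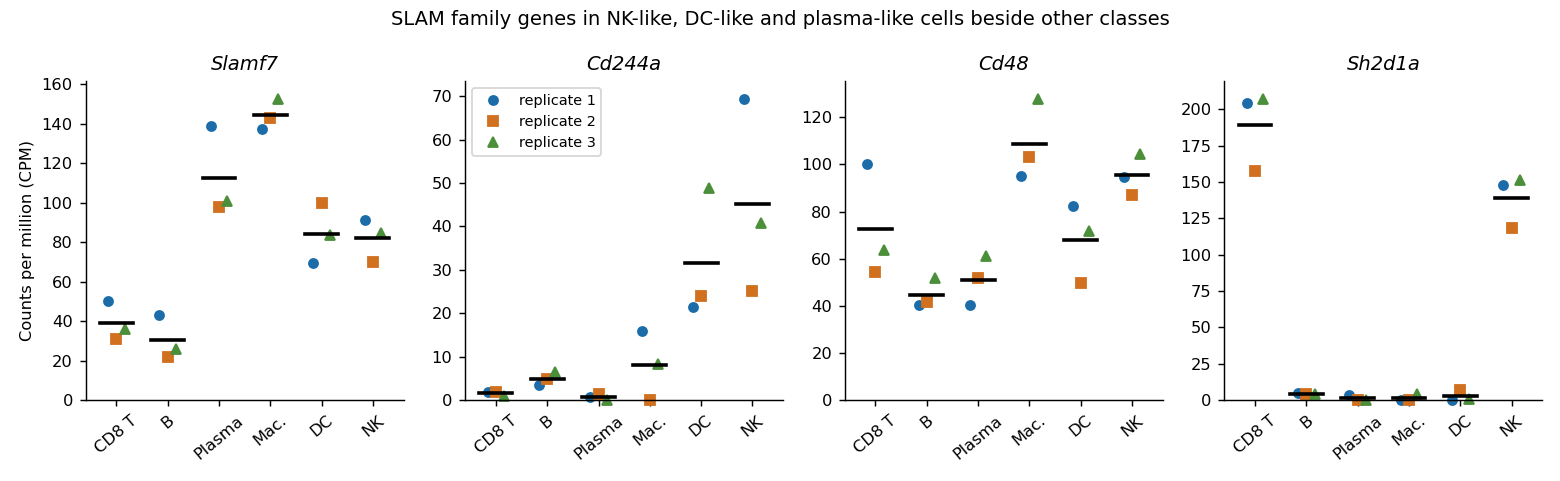
Levels of Slamf7, Cd244a, Cd48 and Sh2d1a (CPM, linear axis from 0) in CD8 T, B, plasma-like, macrophage (Mac.), DC-like and NK-like cells, with 1 point per library and a line at the mean of 3. Cd244a is at 25.2 to 69.3 CPM in NK-like cells and under 7 CPM in CD8 T and B cells, and Sh2d1a is high in CD8 T and NK-like cells.

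The 3 T classes were next split by UMIs of Pdcd1 and of Tcf7. A cell with at least 1 UMI of a gene was called positive, so deeper cells were more often positive. Pdcd1+ cells made up 33.3% of CD8 T, 34.2% of CD4 T and 55.1% of Treg cells, with medians of 7374.5, 6593 and 10393.5 UMIs against 6573, 5499 and 6406.5 in Pdcd1- cells. Of the Pdcd1+ CD8 T cells 45.7% were also Tcf7+. Cd244a was under the count filter in these sums, which left 7 members tested.

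In CD8 T cells, 3 of 7 members were higher in Pdcd1+ cells, where 17.0% of 10188 genes differed in either direction. Cd48 was at 100, 80.3 and 69.5 CPM in Pdcd1+ Tcf7+ cells and at 135, 89.2 and 97.2 in Pdcd1+ Tcf7- cells, against 85.1, 37.5 and 47.8 in Pdcd1- Tcf7+ and 78.6, 42.2 and 59.8 in Pdcd1- Tcf7- cells. Both Pdcd1+ states were above both Pdcd1- states within each library (1.50 times in the fit, log2 0.58, SE 0.10, adjusted p = 4.86e-05). Sh2d1a was 1.63 times higher (log2 0.70, SE 0.14, adjusted p = 2.53e-04) and Slamf7 1.76 times higher (0.81, SE 0.19, adjusted p = 0.00287). Slamf6 had a log2 difference of -0.09 (SE 0.11, 95% interval -0.30 to 0.12).

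Replicate 1 differed from the other libraries in these contrasts. The level of Slamf7 in CD8 T cells, averaged over both Tcf7 states, was higher in Pdcd1+ cells by 2.39 CPM in replicate 1, 33.7 in replicate 2 and 33.3 in replicate 3, and that of Sh2d1a by 23.1, 134 and 186 CPM. Replicate 1 had the highest level of both genes in the Pdcd1- states. The calls of Slamf7 were lost without replicate 2 (log2 0.61, adjusted p = 0.149) and without replicate 3 (0.65, adjusted p = 0.145), as were those of Sh2d1a (0.61, adjusted p = 0.0690, and 0.51, adjusted p = 0.0656), while the call of Cd48 was kept with each library left out. With each cell thinned to 2000 UMIs all 3 calls were lost, at log2 0.37 for Cd48 (adjusted p = 0.838), 0.54 for Sh2d1a (adjusted p = 0.480) and 0.50 for Slamf7 (adjusted p = 0.860). Without the block those of Cd48 (0.57, adjusted p = 0.0529) and Slamf7 (0.74, adjusted p = 0.121) were lost.

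In CD4 T cells, 2 of 7 members were higher in Pdcd1+ cells, where 19.9% of genes differed. Sh2d1a was at 386, 412 and 424 CPM in Pdcd1+ Tcf7+ cells and at 389, 418 and 443 in Pdcd1+ Tcf7- cells, against 317, 174 and 166 and 310, 202 and 191 in the Pdcd1- states. All Pdcd1+ values were thus above all Pdcd1- values (log2 0.75, SE 0.13, adjusted p = 4.50e-05), and the difference between the Tcf7 states was -0.01 (SE 0.18). Slamf7 was higher at low levels, 8.91 to 20.2 CPM in Pdcd1+ and 3.75 to 17.5 CPM in Pdcd1- states (log2 0.96, adjusted p = 0.00403), which was lost without replicate 3 (0.40, adjusted p = 0.587), with thinning to 2000 UMIs (0.48, adjusted p = 0.887), with the cell limits of the study (1.10, adjusted p = 0.0802) and without the block (0.85, adjusted p = 0.110). The call of Sh2d1a was kept in each of these fits. Without replicate 1 Slamf6 passed as well (0.25, adjusted p = 0.0424). The Pdcd1 difference of Cd48 was 0.39 log2 units larger in CD8 than in CD4 T cells, and that difference did not pass (SE 0.14, adjusted p = 0.337).

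No member passed in Treg cells by edgeR or by DESeq2, where 1.32% of genes did by edgeR, and 3 of 7 members and 1251 of 10188 genes had an unadjusted p under 0.05. The largest log2 difference was that of Slamf7 (1.11, SE 0.37, adjusted p = 0.144), which passed without replicate 1 (1.31, adjusted p = 0.0427). No member passed for the difference of the Pdcd1 effect between CD8 and CD4 T cells by either tool, where 0.196% of genes passed by edgeR, and 1 member and 796 of 10188 genes had an unadjusted p under 0.05.

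**Figure D4:**
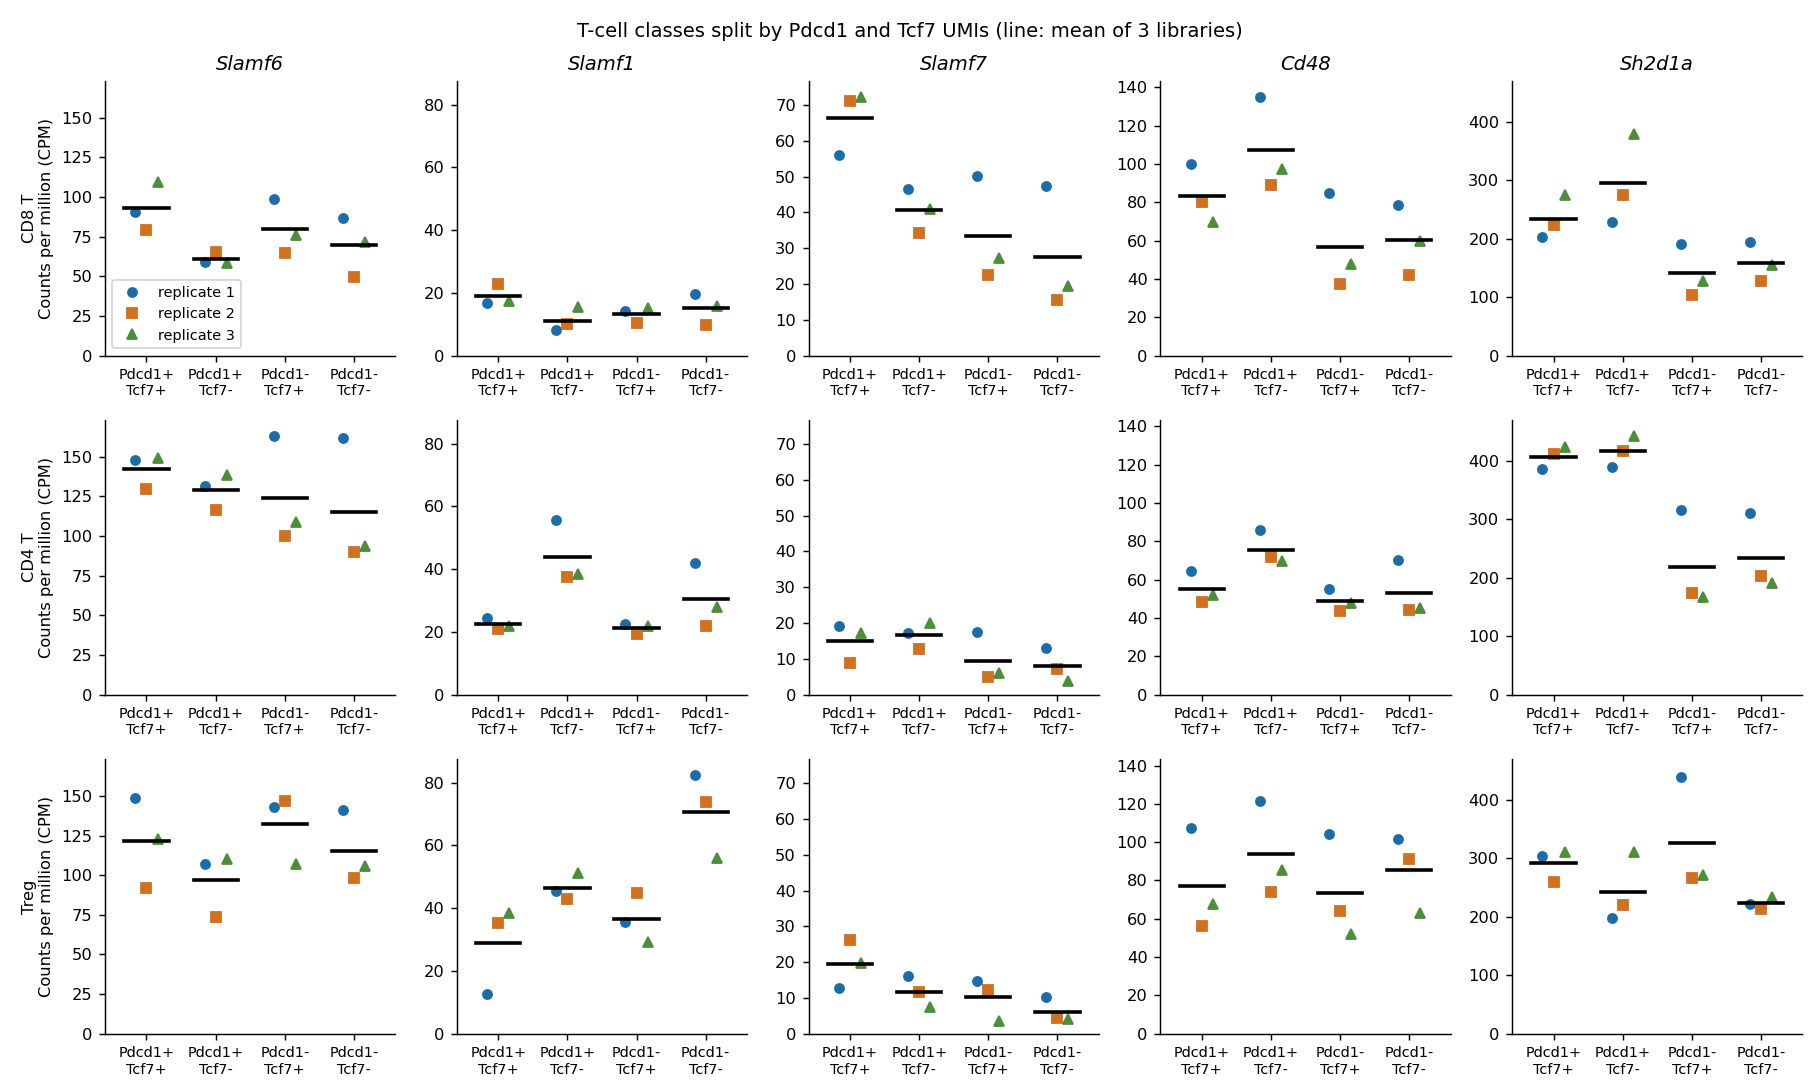
Levels of Slamf6, Slamf1, Slamf7, Cd48 and Sh2d1a (CPM, linear axis from 0, 1 scale per gene) in CD8 T, CD4 T and Treg cells (rows) split by Pdcd1 and Tcf7 UMIs, with 1 point per library and a line at the mean of 3. Slamf6 is lower in Pdcd1+ Tcf7- than in Pdcd1+ Tcf7+ CD8 T cells in every library, and Sh2d1a is higher in Pdcd1+ than in Pdcd1- CD4 T cells.

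Within Pdcd1+ CD8 T cells, Slamf6 was the 1 of 7 members that differed between Tcf7+ and Tcf7- cells, where 1.95% of genes did. It was at 90.3, 79.3 and 110 CPM in the 487 Tcf7+ cells and at 59.1, 65.5 and 58.3 CPM in the 579 Tcf7- cells, higher with Tcf7 in 3 of 3 libraries and without overlap. The difference was 1.56 times (log2 0.64, SE 0.16, adjusted p = 0.0250). Tcf7+ cells had a median of 8352 UMIs and Tcf7- cells 6659. Each cell was also thinned to 2000 UMIs, with its class and states kept from full depth. A Slamf6 UMI was then found in 16.9 ± 2.13% of Tcf7+ cells (80 of 487) and 10.2 ± 2.40% of Tcf7- cells (58 of 579). Without thinning the shares were 49.4% and 29.8%. The call was lost without replicate 2 (log2 0.80, adjusted p = 0.101), without replicate 3 (0.46, adjusted p = 0.501), with the cell limits of the study (0.35, adjusted p = 0.821), with thinning to 2000 UMIs (1.25, adjusted p = 0.777) and without the block (0.64, adjusted p = 0.394).

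The Tcf7- cells were not uniform in Slamf6. Those with a UMI of Havcr2 (TIM-3) or Entpd1 (CD39), genes of terminally differentiated CD8 T cells, had 34.9, 49.8 and 33.8 CPM (217 cells). Those with neither had 84.6, 81.2 and 71.5 CPM (362 cells). Tcf7+ cells with neither had 89.4, 84.5 and 119 CPM (446 cells). They were above the Tcf7- cells with neither in each library, but close in replicates 1 and 2, and the ranges overlapped. Tcf7+ cells with a UMI of Havcr2 or Entpd1 had 101, 51.4 and 34.8 CPM (41 cells, 31 UMIs). No test was run on this split. In Tcf7- cells Cd48 had the opposite order. It was at 139 ± 42.8 CPM with a UMI of Havcr2 or Entpd1 and at 80.9 ± 6.44 CPM with neither. Slamf7 was at 27.3 ± 4.20 and 52.7 ± 16.8 CPM. Among all Pdcd1+ CD8 T cells Slamf7 was higher with Tcf7 in 3 of 3 libraries (55.9, 71.1 and 72.4 against 46.6, 34.3 and 40.9 CPM). The difference did not pass (log2 0.81, SE 0.26, adjusted p = 0.116), and passed without replicate 1 (0.98, adjusted p = 0.0279).

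Slamf1, not Slamf6, was the member that differed with Tcf7 in Pdcd1+ CD4 T cells, where 1.32% of genes did. Its levels were 24.4, 21.1 and 21.9 CPM in Tcf7+ and 55.7, 37.6 and 38.3 CPM in Tcf7- cells, 1.84 times lower with Tcf7 (log2 -0.88, SE 0.20, adjusted p = 0.0143). In Pdcd1+ CD8 T cells its values were 16.7, 22.8 and 17.4 CPM with and 8.06, 10.0 and 15.4 CPM without Tcf7 (log2 0.75, adjusted p = 0.226). The CD4 call was lost without replicate 2 (-0.93, adjusted p = 0.408), without replicate 3 (-0.95, adjusted p = 0.269), with thinning to 2000 UMIs (-0.70, adjusted p = 0.866), with the cell limits of the study (-0.52, adjusted p = 0.594) and without the block (-0.92, adjusted p = 0.222). Slamf6 was at 142 ± 11.0 and 129 ± 11.5 CPM in the same CD4 states (log2 0.16, SE 0.13, 95% interval -0.10 to 0.42). Of these Pdcd1+ CD4 T cells, Tcf7+ cells had a median of 8445 UMIs and Tcf7- cells 5734. Treg cells without a Foxp3 UMI would count as CD4 T cells, and their part in the Slamf1 difference was not tested.

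No member passed for Tcf7 in Pdcd1+ Treg cells by edgeR or DESeq2, where 1.16% of genes passed by edgeR and 3 members and 1143 of 10188 genes had an unadjusted p under 0.05. Slamf1 was highest of all T states in Pdcd1- Tcf7- Treg cells (82.5, 73.9 and 55.9 CPM), above both CD8 and CD4 states, and these cells had a median of 5713 UMIs. For the difference of the Tcf7 effect between CD8 and CD4 T cells, 0.0% of genes and no member passed by edgeR or DESeq2, with 578 of 10188 genes and 3 members at an unadjusted p under 0.05. That difference was 0.48 log2 units for Slamf6 (SE 0.21, adjusted p = 0.865), so a Slamf6 difference particular to CD8 T cells was not shown.

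**Figure D5:**
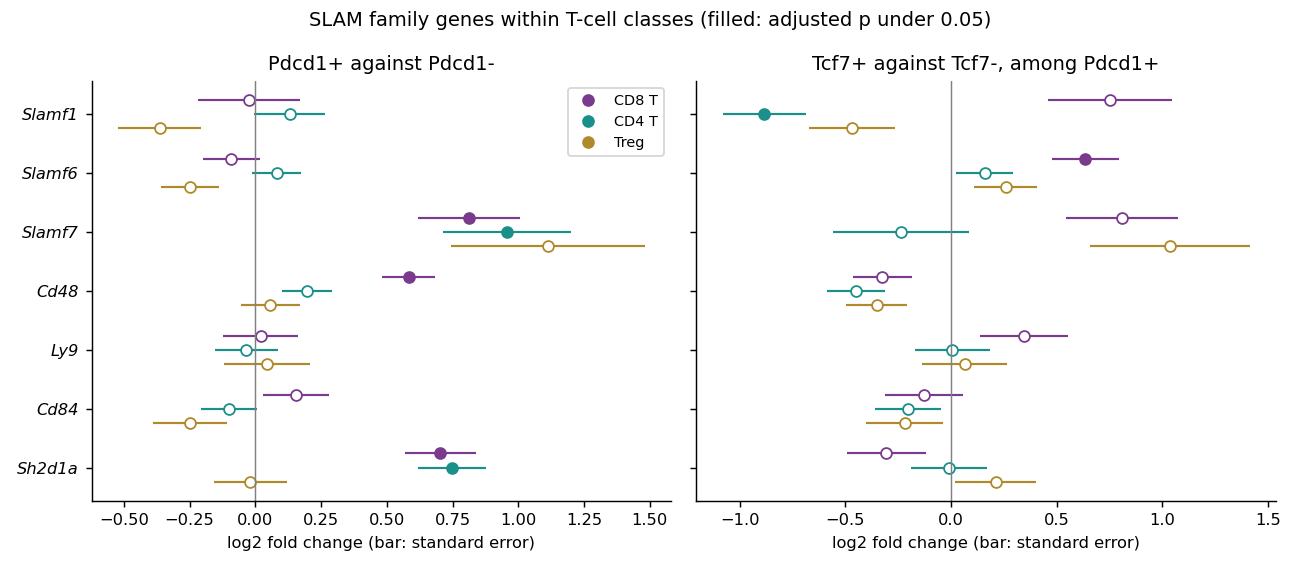
Log2 fold changes of 7 SLAM family genes from the edgeR fit, with standard errors derived from the F statistic of the test. They are for Pdcd1+ against Pdcd1- cells (left) and for Tcf7+ against Tcf7- among Pdcd1+ cells (right), in CD8 T, CD4 T and Treg cells. Filled points have an adjusted p under 0.05, which are Slamf7, Cd48 and Sh2d1a in CD8 T cells and Slamf7 and Sh2d1a in CD4 T cells on the left, and Slamf6 in CD8 T cells and Slamf1 in CD4 T cells on the right.

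Per cell, detection was sparse. At 2000 UMIs a cell, Sh2d1a was found in 35.3 ± 1.30% of Treg, 34.3 ± 5.10% of CD4 T and 26.2 ± 3.09% of CD8 T cells, and in 0.871 ± 0.233% of B cells (44 of 4910), which stand here for cells that lack the gene. Of the 154 Sh2d1a UMIs of B cells at full depth, 90 remained with the highest doublet scores left out. Slamf6 was found in 20.1 ± 4.96% of CD4 T and 13.3 ± 2.91% of CD8 T cells and in 0 of 67 macrophages, which allows a share of up to 4.48%. Slamf1 was found in 8.92 ± 1.58% of Treg, 4.99% of CD4 T, 2.64% of CD8 T and 1.54% of B cells. The mean number of the 7 receptors found per cell was 0.565 in Treg, 0.504 in CD4 T, 0.450 in CD8 T and 0.375 in B cells. Sh2d1a was found in 39.9 ± 2.51% of CD4 T cells with a Slamf6 UMI and in 33.1 ± 5.60% of those without, higher in all 3 libraries. With a Slamf6 UMI it was higher in 2 of 3 libraries in CD8 T and in Treg cells, and in CD4 T cells with a Slamf1 UMI it was lower in all 3 (30.3 ± 4.93% against 34.5 ± 5.14%). No test was run on these shares, and every share of this kind is of cells with a UMI and not of cells that express the gene.

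Of 12 partner genes of the pathway (further receptors, adaptors, kinases and phosphatases), 11 passed the count filter in the class sums, and 5 were higher and 5 lower in B cells than in T classes, where 3307 of 12099 genes were higher and 3567 lower. The phosphatases Ptpn6 (SHP-1) and Inpp5d (SHIP-1) were higher in B cells by 2.09 and 1.68 log2 units. The phosphatase Ptpn11 (SHP-2) went the other way (log2 -0.60, edgeR, adjusted p = 1.97e-04). Prkcq, a kinase downstream of SAP and Fyn, and Lck were lower by 4.22 and 2.61. In macrophages 4 partners were higher and 5 lower, where 1819 of 12099 genes were higher and 2417 lower. The receptors Slamf8 and Slamf9 and the adaptor Sh2d1b1 (EAT-2) were higher there by 7.46, 6.62 and 3.59. The macrophage level of Sh2d1b1 rests on 9 UMIs, 6 of them in replicate 1, against 152 UMIs for Slamf8 and 78 for Slamf9. Fyn, the kinase that SAP recruits, was higher in Pdcd1+ cells, by 0.53 in CD8 T cells (adjusted p = 1.61e-05) and by 0.42 in CD4 T cells (adjusted p = 1.76e-04), as Sh2d1a was. Among 10 partners tested there, 2 were higher and 1 lower in CD8 and 3 higher and 1 lower in CD4 T cells, the lower 1 being Prkcq in each. Of all 10188 genes, 785 were higher and 944 lower in CD8 and 1009 higher and 1015 lower in CD4 T cells. Cd2, the other receptor of Cd48 in mice, was lower in Tcf7+ than Tcf7- Pdcd1+ cells, by 0.54 in CD8 T, 0.46 in CD4 T and 0.53 in Treg cells.

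Genes of T-cell states served as a check of the split. Of 14 such genes, 8 were higher and 2 lower in Pdcd1+ CD8 T cells, with Tox (1.23) and Lag3 (1.55) higher and Lef1 (-2.01) and Il7r (-1.13) lower on the log2 scale. Among Pdcd1+ CD8 T cells, 2 of the 14 were higher with Tcf7, Lef1 (1.41) and Il7r (0.71). Lower were 4, Havcr2 (-3.20), Entpd1 (-3.14), Cxcr6 (-2.33) and Lag3 (-1.12), where 90 of 10188 genes were higher and 109 lower. The other genes of the list did not pass, among them Id3 (0.38), Bcl6 (0.43), Cxcr5 (0.26), Tox (-0.48), Eomes (-0.30) and Tigit (-0.38). Slamf6 was thus higher beside Lef1 and Il7r, and Cd48 was at 107 ± 24.6 CPM without and 83.3 ± 15.5 CPM with Tcf7 (log2 -0.32, SE 0.14, adjusted p = 0.281).

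Across the 15 class sums, the genes most like each member by Pearson's r of log2 levels, among 2687 genes that reach 50 CPM, are given as a description, since sums of 1 library share its cells and depth and 3 of the sums hold 10 to 31 macrophages. Sh2d1a was most like Bcl11b (r = 0.99), Trac (0.99) and Esyt2 (0.98). Slamf6 was most like Cdc40 (0.97), Elf1 (0.97) and Hadhb (0.97), and Prkar1a (0.96) and Appl1 (0.96) were among the 3 genes most like Slamf1. For Slamf7 these were Dusp2 (0.93), Iqgap1 (0.92) and Plaur (0.91), for Cd48 Fabp5 (0.94), S100a10 (0.92) and Psmb8 (0.91), and for Ly9 Cope (0.92), Med8 (0.92) and Utp3 (0.90). Cd84 was most like Ywhab (0.87), Cd47 (0.85) and Nae1 (0.84), and Cd244a most like Mat2a (0.89), Rock2 (0.88) and Fam50a (0.85). Among the members themselves, Slamf1 and Slamf6 went together (r = 0.85), and Slamf7 went against Slamf6 (r = -0.89) and Slamf1 (r = -0.87).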

How the data were processed

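The authors sorted live CD45+ islet cells, made 10x Genomics 3' libraries and aligned and counted reads with Cell Ranger 6.0.1 on mm10. Of the deposited cells, 98.0, 96.5 and 97.0% in replicates 1, 2 and 3 passed the limits used here, so the tables do not hold every barcode. The cell limits of the study had not been applied, since 12354 of 26947 cells met them. The deposited values are raw counts of UMIs per gene and cell, with no normalization or annotation. From these, cells were classed by UMI thresholds, and counts were summed per library and class (15 sums) and per library, T class, Pdcd1 and Tcf7 state (36 sums, each of at least 10 cells). The sums were fitted with edgeR 4.0.16 in R 4.3.3 (filterByExpr, TMM, glmQLFit and glmQLFTest, Benjamini-Hochberg adjustment over all genes) with the library as a block, and the test was tried on simulated data. The block rests on the shared mice and shared handling of a library, which cannot be told apart. Deviations from group means correlated within a library with a mean r of 0.285 (0.03 to 0.68) in class sums (30 pairs). In state sums the mean was 0.35 (0.08 to 0.64, 198 pairs). Between libraries the means were -0.13 and -0.16, but negative values there follow from centring each group on the mean of 3 libraries. They are therefore no separate sign of a library effect.

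Alternatives were DESeq2 1.42.0, RLE size factors, no count filter, no block, each library left out, the cell limits of the study, cells with markers of 2 classes or the highest 7.6% of Scrublet scores (scanpy 1.11.5) left out, and thinning to 2000 UMIs. Doublets were otherwise not removed. Fits with thinning set classes and states anew from the thinned counts, so depth and membership change together. Shares at 2000 UMIs keep the classes and states of full depth. Intervals of ratios are exact 95% intervals, a limit beside a count of 0 is that of 3 counts, and both cover counting error only. An SE of an edgeR log2 difference is that difference over the square root of the F statistic. Intervals of 95% of log2 differences are normal approximations from this SE, so they can differ from what p gives. The genes named are the 8 members, partners and state genes of set lists, and the 3 genes most like each member, of which 1 is not reported here. Members, lists and motifs were chosen with earlier results of these data known, the motifs with the promoter sequences in view, and the split by Havcr2 and Entpd1 after the values were seen. With the block, p-values rest on how the groups vary over 3 pooled libraries once the shift of each library is removed. That variance is shared over all groups of a fit and drawn toward that of other genes.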

Additional observations from a re-analysis of the deposited data

Results flagged for a closer look

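The Slamf1 difference between cells with and without a Tcf7 UMI had opposite signs in Pdcd1+ CD8 and CD4 T cells in every library. It was picked by a search of the Pdcd1 and Tcf7 differences of all members for such opposite signs in every library. The signs are thus the rule of the search and no separate support, and the p and interval below are those of a picked item. In CD8 T cells by themselves the Slamf1 difference did not pass (edgeR, adjusted p = 0.226). The level with Tcf7 less that without was 8.63, 12.8 and 2.02 CPM in CD8 T cells of replicates 1, 2 and 3, and -31.3, -16.5 and -16.4 CPM in CD4 T cells. The difference between the classes was 1.63 log2 units (SE 0.35, 95% interval 0.94 to 2.33, unadjusted p = 5.62e-05), and it did not pass the adjustment over 10188 genes (edgeR, adjusted p = 0.286). In the fit without a count filter it passed with the same estimate (1.63, adjusted p = 1.20e-04). That fit called 84 of 19833 genes for this difference, where the edgeR and DESeq2 fits with the filter called 0. The CD8 values rest on 95 UMIs with and 56 without Tcf7.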

How the results depend on the processing

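Of 132 recomputed counts of members that passed, 97 stayed within 1.5 times of the reported count and 35 did not, and those for B cells against T classes stayed throughout. Of 953 recomputed log2 differences of single members, 893 stayed on their side of the threshold. Of the rest, 16 newly passed, 43 no longer passed and 1 reversed. Direction was compared only where the reported or the recomputed difference passed. The reversed difference was that of Sh2d1a in Pdcd1+ against Pdcd1- Treg cells. It was 0.91 (edgeR, adjusted p = 0.0188) with the cell limits of the study and -0.02 with the cells used here. The causes were not tested beyond the fewer cells, UMIs or libraries that an alternative leaves.

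With cells thinned to 2000 UMIs, the count of members fell from 4 to 2 for CD8 against CD4 T cells, from 5 to 3 for macrophages, from 1 to 0 for Treg against CD4 T cells, from 3 to 0 and from 2 to 1 for Pdcd1 in CD8 and CD4 T cells, and from 1 to 0 for Tcf7 in both. Without the replicate block it was 0 for Treg against CD4 T cells, 1 for Pdcd1 in CD8 and in CD4 T cells, and 0 for Tcf7 in both, and the block changed no count for B cells, macrophages or CD8 against CD4 T cells by over 1.5 times. With no count filter it was 2 for Treg against CD4 T cells, 2 for Tcf7 in CD8 T cells, 1 for Pdcd1 and 1 for Tcf7 in Treg cells, and 2 for the difference of the Tcf7 effect. The cell limits of the study gave 3 for macrophages, 2 for Treg against CD4 T cells, 1 for Pdcd1 in CD4 and in Treg cells, and 0 for Tcf7 in CD8 and in CD4 T cells.

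With 1 library left out in turn, counts ranged from 0 to 2 for Treg against CD4 T cells and for Tcf7 in CD8 T cells, from 1 to 3 for Pdcd1 in CD8 T cells, from 1 to 3 for Pdcd1 in CD4 T cells, from 0 to 1 for Tcf7 in CD4 T cells and for Pdcd1 in Treg cells. Depth limits Cd244a, which was under the count filter in the T states. Shares of cells with a UMI moved beyond their spread in 33 of 40 cases with thinning to 1000 UMIs and in 39 of 40 with none.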
